A study of Mus musculus with 10 samples.

Results

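Genes of the Wnt signalling pathway were followed in immortalized mouse embryonic fibroblasts (MEFs), a cultured connective tissue cell, that carried mutant mitochondrial DNA (mtDNA). The set was a list of 53 genes for Wnt ligands, receptors and modulators, matched by symbol to the 26401 genes of the count table. All 53 had a row. Of these, 39 reached a mean of at least 0.5 CPM (read counts scaled to a common library total) over the 10 libraries and are described, and 33 passed the filter on low counts and were tested. The list was drawn up by gene name and not by measured values of this contrast, but with earlier results of these data known.

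All 10 populations came from embryos, carried the genotype m.5024C>T and bear the strain name C57Bl/6N in the labels. This change sits within mt-Ta, which encodes the alanine tRNA of mitochondria. Mutant and normal mtDNA coexist in such cells, a state called heteroplasmy. The high group held 5 populations with high heteroplasmy and the low group held 5 with low heteroplasmy. Both groups were grown in high glucose medium with 10% fetal bovine serum and 50 µg/ml uridine. No population without the mutation was analysed here. Each library is 1 population with its own clone number, so a difference between the groups rests on 5 clones a side. The sources used here do not give the mutant share of each clone, the embryonic stage or how the lines were immortalized. Libraries are numbered 1 to 5 within each group.

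Wnt proteins are secreted lipid-modified ligands that bind Frizzled receptors together with the co-receptors Lrp5 and Lrp6, or with Ror2 or Ryk. In the canonical branch, binding halts a destruction complex built on Axin and Apc, so that beta-catenin builds up and acts in the nucleus with TCF/LEF transcription factors. Secreted Dickkopf (Dkk) and Sfrp proteins modulate ligand or co-receptor, and R-spondins, acting through Lgr receptors, protect Frizzled receptors from the membrane ubiquitin ligases Znrf3 and Rnf43. Fibroblasts both send and receive Wnt signals in connective tissue.

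The libraries held 17318372 to 28208576 counts on genes, and 17408 to 18429 genes were detected in each. All 9 fibroblast markers averaged at least 0.5 CPM over the 10 libraries, but some were near 0 in some clones. Thy1 had 0 to 0.326 CPM in low libraries and 0 CPM in high 4, against 56.8 CPM in high 1. Dcn had 0 to 0.61 CPM in high libraries and 0.49 to 3.53 CPM in low libraries. Col1a2 had 1.98 CPM in high 2 and 2.15 CPM in high 4, against 72.9 to 886 CPM in the others. The summed level of the 9 markers was 9413 to 19635 CPM in high libraries and 11558 to 13428 CPM in low libraries. Most of it came from Col1a1, Vim and Fn1. The endothelial marker Cdh5, the immune marker Ptprc and the epithelial marker Esrp1 were at 0 counts in all 10 libraries. Other markers of these lists were detected. The immune marker Cd68 ran from 11.7 CPM in high 5 to 90.0 CPM in high 1. The epithelial marker Cldn7 reached 8.63 CPM in high 3, and Cdh1 reached 3.76 CPM in low 1. Cd68 and Cdh1 were tested, and neither was called (adjusted p = 0.237 and 0.0926 in edgeR). No endothelial marker averaged 0.5 CPM. One list of markers of other cells moved with the groups. Of 6 neural and glial markers, 4 averaged at least 0.5 CPM, and Sox10 was at 0. Nes (log2 fold change -1.32, adjusted p = 0.0159) and Tubb3 (-1.55, adjusted p = 0.0378, edgeR) fell in the high group. The summed level of this list was 141 to 270 CPM in high libraries and 317 to 398 CPM in low libraries. Its part in the differences below was not tested. The RNA Gm42418 reached 40941 CPM in low 2 and 8017 CPM in low 3, against 745 to 1616 CPM in the other libraries, so counts are also given without these 2 libraries.

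Of the 33 tested Wnt genes, 3 rose and 3 fell in high relative to low clones. The 3 that fell were the ligands Wnt9a and Wnt7b and the secreted modulator Dkk2. The 3 that rose were the R-spondin receptor Lgr4 and the transcription factors Tcf7l1 and Tcf7l2. Calls are an adjusted p under 0.05 (edgeR's quasi-likelihood test with Benjamini-Hochberg adjustment over 12964 genes, two-sided). The Wnt genes called were 18.2% of those tested, against 4.86% of all tested genes. By direction, 1.99% of all tested genes rose and 2.87% fell. The remaining 27 Wnt genes were not called. An unadjusted p under 0.05 (edgeR) was found for 15 of the 33, the 6 called genes included, against 21.6% of all tested genes. The 2 groups did not overlap for 5 Wnt genes, or 15.2%, against 7.17% of all tested genes. Over the 33 genes the median log2 fold change (high over low) was 0.03, and the median of its absolute size was 0.86. Over all tested genes these medians were 0.02 and 0.28. A gene that passed the filter through 1 group alone had to differ, so these shares describe the tested genes and not the whole list. Less RNA per cell and fewer cells making it cannot be told apart in bulk libraries.

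Leaving out libraries moved these counts, and it moved the count over all genes as well. All genes called numbered 630 with all libraries, 821 without high 1, 804 without high 4 and 232 to 431 without any other single library. Each such fit applied the filter anew and tested 34 to 37 of the Wnt genes, among them Wnt5a in most. With the 12964 genes of the full fit kept as the tested set, an analysis added after seeing the data, 0 Wnt genes were called higher without low 1. There was 1, Lgr4, without high 2, high 3, low 2, low 3 or low 4, there were 5 without high 1, and 2 to 4 without high 4, high 5 or low 5. Called lower on the same genes were 5 without high 4, 4 without high 1, and 2 or 3 without any other single library. Both Wnt9a and Dkk2 were called each time. Without low 2 and low 3 together, 25 of the 12964 genes were called, of which 1, Dkk2, is on the Wnt list. In that fit Wnt9a just missed (adjusted p = 0.0526 in edgeR), and it was called when the filter was applied anew (0.0469), where 56 of 13521 genes were called.

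**Figure D1:**
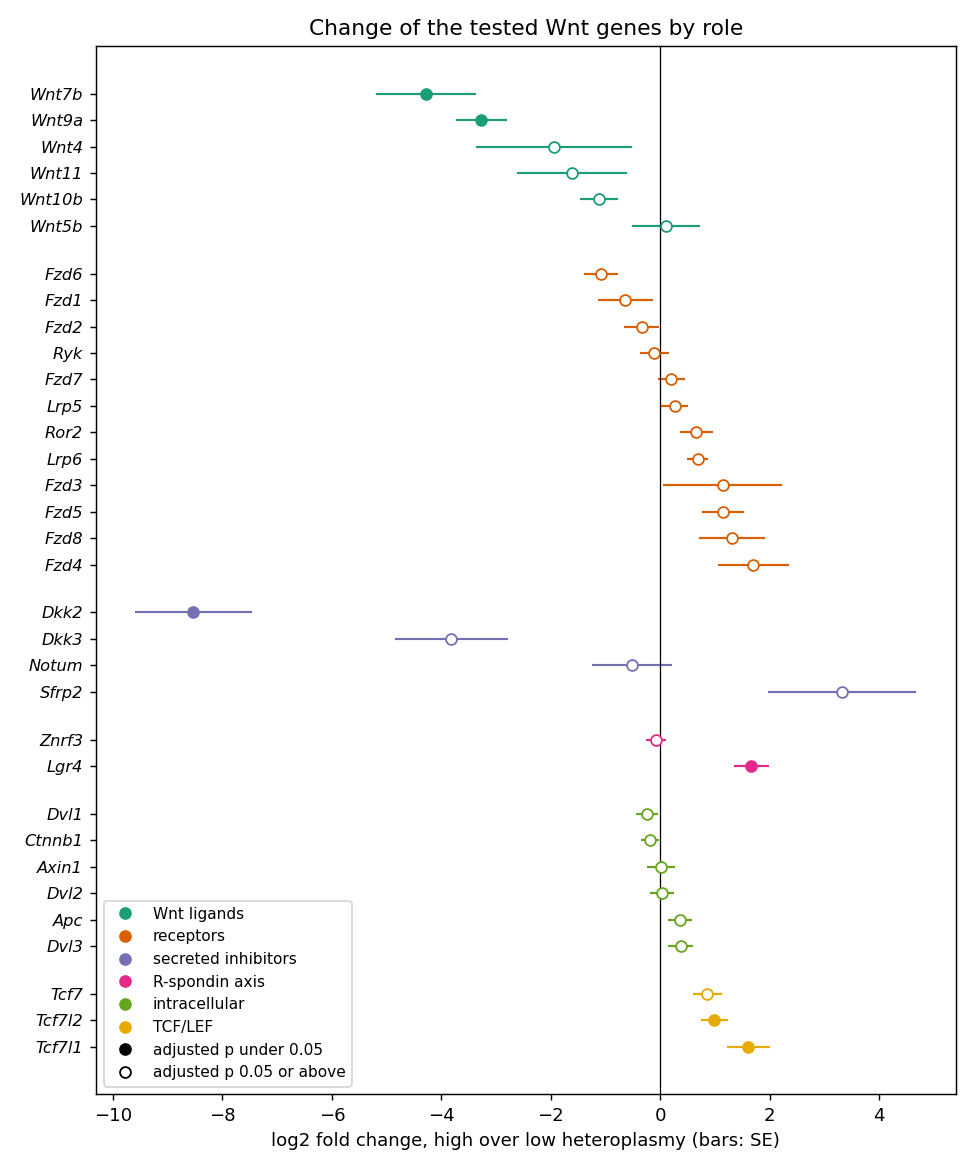
Log2 fold change (high over low heteroplasmy, horizontal axis) of the 33 tested Wnt genes, grouped by role, with the SE as a bar; filled points have an adjusted p under 0.05. Wnt7b, Wnt9a and Dkk2 lie on the negative side and Lgr4, Tcf7l1 and Tcf7l2 on the positive side, while the intracellular genes lie between -0.24 and 0.37.

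Promoter sequences are shown for the 3 called genes whose groups did not overlap, because these carry the clearest separation between the groups. They come from RefSeq on GRCm38.p6 and run from 250 bases before the gene start to 50 bases after it, 5′ to 3′ on the plus strand, on which all 3 genes lie. Capitals mark CG dinucleotides, the sites at which mammalian DNA is mostly methylated. Methylation was not measured here.
Wnt9a: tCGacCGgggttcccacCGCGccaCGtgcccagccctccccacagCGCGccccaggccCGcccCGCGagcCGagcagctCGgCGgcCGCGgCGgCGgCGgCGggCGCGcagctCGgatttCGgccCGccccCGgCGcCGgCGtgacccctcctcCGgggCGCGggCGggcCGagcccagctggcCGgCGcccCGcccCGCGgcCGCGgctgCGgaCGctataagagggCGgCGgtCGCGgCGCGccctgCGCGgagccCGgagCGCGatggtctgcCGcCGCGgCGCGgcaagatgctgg
Dkk2: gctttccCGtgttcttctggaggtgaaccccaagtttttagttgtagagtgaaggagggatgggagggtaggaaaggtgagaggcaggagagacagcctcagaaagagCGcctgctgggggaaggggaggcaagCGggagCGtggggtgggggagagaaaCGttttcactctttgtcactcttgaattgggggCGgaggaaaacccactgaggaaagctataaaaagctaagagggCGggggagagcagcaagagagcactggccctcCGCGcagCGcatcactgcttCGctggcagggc
Lgr4: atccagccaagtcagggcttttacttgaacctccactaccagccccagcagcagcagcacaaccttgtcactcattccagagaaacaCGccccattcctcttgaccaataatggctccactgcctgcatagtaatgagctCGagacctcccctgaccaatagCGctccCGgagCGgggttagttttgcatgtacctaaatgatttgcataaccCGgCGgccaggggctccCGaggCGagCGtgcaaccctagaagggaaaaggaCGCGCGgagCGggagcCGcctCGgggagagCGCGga

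The Wnt9a promoter is at chr11:59306680-59306979, that of Dkk2 at chr3:132085042-132085341 and that of Lgr4 at chr2:109917397-109917696. Wnt9a has 58 CG dinucleotides in its 300 bases and a GC content of 83.3%. Dkk2 has 11 at a GC content of 57.7%, and Lgr4 has 18 at 58.3%. The median of all 32851 promoters in the table is 7 CG dinucleotides, and the median of the 45 promoters matched to the Wnt list, from 35 of the 53 genes, is 24. One form of the core of the TCF/LEF binding motif, CTTTGA, was searched with its reverse complement TCAAAG, which covers both strands. It is present in 7 of the 45 promoters of Wnt genes, or 15.6%, and in 16.0% of all promoters. None of the 5 called genes with a promoter in the table holds CTTTGA or TCAAAG in this window. Forms with another last letter were not searched, and the Dkk2 promoter above holds CTTTGT.

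Ligands start the pathway. Of 12 on the list, 10 averaged at least 0.5 CPM and 6 were tested, of which 2 fell and none rose. The median log2 fold change of the 6 was -1.78. Per kilobase of exon, the scale on which genes can be compared, Wnt10b was the highest ligand in both groups, with 5.35 CPM in high clones and 11.6 CPM in low clones. The order of the others differed by group. In high clones Wnt4, carried by high 4, had 1.19 CPM per kilobase, Wnt5b 0.612, Wnt9a 0.465 and Wnt16, mostly from high 2, 0.449. Wnt11 had 0.0604 there and Wnt6 0.0598. In low clones Wnt4 had 4.54 CPM per kilobase, Wnt9a 4.53, Wnt6, mostly from low 1, 2.53, Wnt7b 0.907, Wnt10a 0.738 and Wnt5b 0.566. The remaining described ligands were lower in each group.

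Wnt9a (ENSMUSG00000000126, chr11:59306928-59333552, plus strand, GRCm38) encodes a ligand with known roles in joint and limb formation. It had 0.508, 0.989, 1.13, 2.59 and 2.53 CPM in high 1 to high 5, against 16.2, 14.0, 10.9, 9.87 and 24.4 CPM in low 1 to low 5. Every high clone lay below every low clone. The means were 1.55 ± 0.949 CPM in high clones and 15.1 ± 5.81 CPM in low clones (SD, n = 5 each). High over low, the log2 change was -3.27 (SE 0.47, adjusted p = 0.00661 in edgeR). The neighbouring ligand gene Wnt3a, 16.2 kb away on chromosome 11, had 0 counts in all libraries.

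Wnt7b (ENSMUSG00000022382, chr15:85535437-85582473, minus strand) encodes a ligand that supports lung and vessel development. It had 0.0508, 0.086, 0.0757, 0.239 and 0.632 CPM in high 1 to high 5, against 2.62, 0.38, 10.8, 2.43 and 5.99 CPM in low 1 to low 5. The groups overlapped at 1 point, with high 5 above low 2. Wnt7b fell by 4.28 on the log2 scale (SE 0.92, adjusted p = 0.0285 in edgeR). Leaving out high 2 gave an adjusted p of 0.0623, and leaving out high 3 gave 0.0674, low 1 gave 0.0512, low 3 gave 0.0588 and low 5 gave 0.0503. Leaving out low 2 and low 3 together gave 0.0669. With an offset per chromosome the call was also lost (adjusted p = 0.0505 in edgeR).

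Wnt10b (chr15:98770712-98778150), a ligand that restrains fat cell formation in mesenchymal cells, had 15.5, 15.9, 6.54, 28 and 24.8 CPM in high 1 to high 5. Low 1 to low 5 had 36.9, 58.0, 41.8, 28.3 and 33.1 CPM. The groups did not overlap, but high 4 and low 4 nearly met. The means were 18.2 ± 8.49 CPM in high clones and 39.6 ± 11.4 CPM in low clones (SD, n = 5 each). Its log2 fold change was -1.12 (SE 0.34) and missed the threshold in edgeR (adjusted p = 0.0845). DESeq2 called it (adjusted p = 0.0193).

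Wnt4, a ligand with known roles in kidney and gonad formation, was near 0 in 4 high clones and present in high 4. It had 0.305, 0.258, 0.151, 24.0 and 0.166 CPM in high 1 to high 5, against 1.99, 27.4, 46.0, 9.0 and 10.8 CPM in low 1 to low 5. High 4 lay within the range of the low clones and the other high clones lay below all of them. The log2 fold change was -1.94 (SE 1.42, adjusted p = 0.473 in edgeR) with all libraries, and -6.43 (SE 0.95, adjusted p = 0.0101) without high 4. Removing the clone that differs favours a call, and without any other single library the adjusted p was 0.454 to 0.705 (edgeR). Wnt5b and Wnt11, ligands mostly linked to the non-canonical branch, had log2 fold changes of 0.11 (SE 0.62) and -1.61 (SE 1.00), and neither was called.

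The filter left out 4 described ligands that reached its level in too few libraries. Wnt5a, the best known ligand of the non-canonical branch, had 2, 1, 1, 0 and 0 counts in high 1 to high 5, against 48, 30, 10, 13 and 71 counts in low 1 to low 5. The groups did not overlap. In scaled units, Wnt5a reached 0.102 CPM at most in a high clone, against 0.469 CPM at least in a low clone. The low-to-high ratio of the scaled counts was 53.8 (95% counting interval 20.6 to 200). In a fit without the filter, where 2.12% of 23398 genes were called, the adjusted p was 0.00623 (edgeR). Wnt5a lies on chromosome 14, whose tested genes had a median log2 fold change of -0.44.

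Wnt6 and Wnt10a, ligands with known roles in skin and kidney, and in skin and teeth, are neighbours 6.19 kb apart on chromosome 1. Wnt6 had 0, 0.387, 0.189, 0.0795 and 0 CPM in high 1 to high 5, against 20.3, 0.978, 5.07, 1.26 and 0.163 CPM in low 1 to low 5. Wnt10a had 0, 0.086, 0, 0 and 0 CPM in high 1 to high 5, against 5.58, 0.326, 2.35, 0.795 and 0.0544 CPM in low 1 to low 5. Both genes ranked the 5 low clones in the same order, with low 1 highest and low 5 lowest, and low 5 lay within the high range for both. In the fit without the filter, Wnt10a was called (adjusted p = 0.0335) and Wnt6 was not (0.104, edgeR). Wnt10a had 2 counts in the high group and 174 in the low group.

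Wnt16, a ligand known for its role in bone, had its counts in high clones. It had 0.813, 7.61, 1.29, 0.0795 and 0 CPM in high 1 to high 5 and 0 counts in all 5 low clones. Over the group this is at least 61.0-fold higher in high clones, against a floor of 3 counts. High 5 had no counts either, and high 2 held 177 of the 229. Without the filter the gene was not called (adjusted p = 0.227, edgeR). Wnt2, below the level for description, was also highest in high 2, at 0.688 CPM, and had 1 count in all low clones together.

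**Figure D2:**
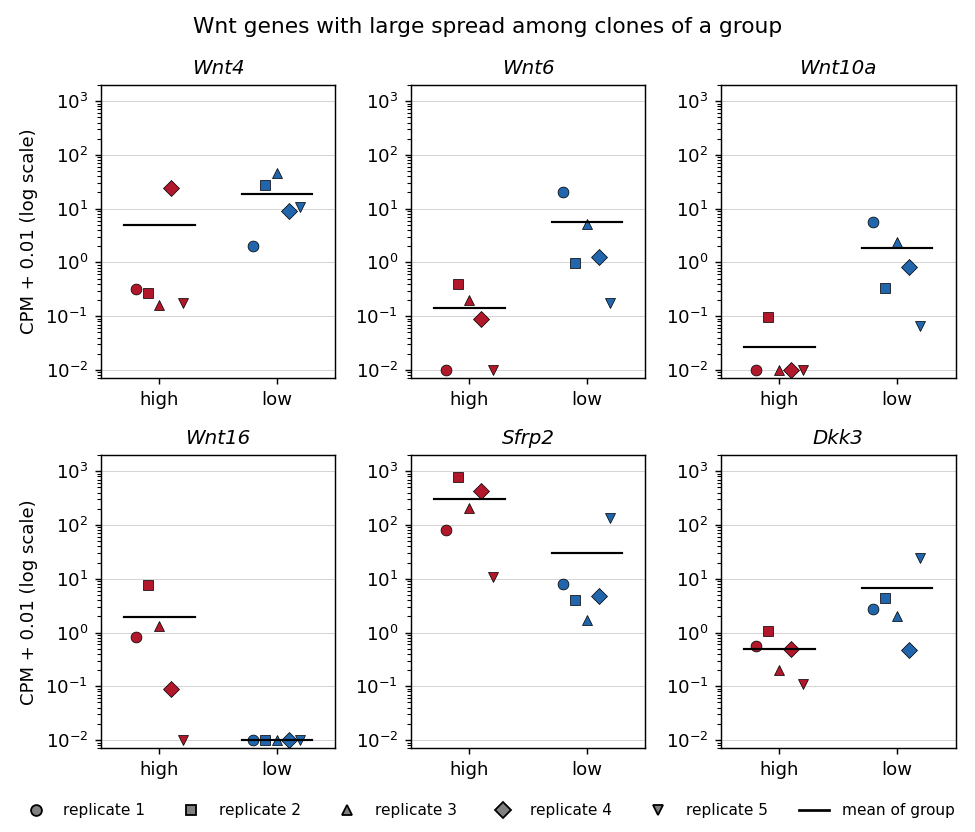
Level of 6 Wnt genes in each clone, on a log axis of CPM + 0.01, with high clones left and low clones right; symbols give the replicate number and lines the group mean. Wnt4 is high in 1 of 5 high clones, Wnt16 is at 0 in all low clones, and Sfrp2 in low 5 lies within the range of the high clones.

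Of 13 receptors and co-receptors, 12 were tested and none was called by edgeR, although 5 had an unadjusted p under 0.05. DESeq2, which called 11.4% of all tested genes, called 3 of the 12, and limma-voom, which called 5.3% of them, called 1. The median log2 fold change of the 12 was 0.46, with 8 positive and 4 negative. Ryk, a receptor tyrosine kinase-like protein that binds Wnts, was the highest at 57.5 CPM per kilobase, ahead of Fzd2 at 22.6, Fzd6 at 15.1, Lrp5 at 12 and Fzd7 at 9.46. Ryk had 400, 208, 259, 196 and 190 CPM in high 1 to high 5, against 294, 255, 290, 149 and 365 CPM in low 1 to low 5. The ranges overlapped widely, and the log2 fold change was -0.11 (SE 0.26, adjusted p = 0.861 in edgeR).

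Among the Frizzled receptors, Fzd6 (chr15:39006034-39038188), known for hair patterning and planar polarity, had the clearest separation. It had 68.1, 27.0, 35.9, 76.8 and 25.9 CPM in high 1 to high 5, against 104, 122, 98.3, 80.2 and 90.0 CPM in low 1 to low 5. No high clone reached the lowest low clone. Its log2 fold change was -1.08 (SE 0.31, adjusted p = 0.0686 in edgeR). The gene passed without high 1 (adjusted p = 0.0456) or high 4 (0.0276), and in DESeq2 (0.0101) and limma-voom (0.0394) with all libraries.

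Fzd5 (chr1:64730558-64737751), a receptor that can act in the canonical branch, had 7.16, 20.5, 27.7, 21.1 and 7.65 CPM in high 1 to high 5. Low 1 to low 5 had 5.64, 8.53, 6.00, 7.53 and 10.1 CPM. High 2, high 3 and high 4 lay above every low clone, and high 1 and high 5 lay among them. High over low, the log2 change was 1.15 (SE 0.38, adjusted p = 0.106 in edgeR), and without high 1 it was 1.35 (adjusted p = 0.0432). Fzd5 was called in only 1 of 10 fits with a single library left out. DESeq2 called it with all libraries (adjusted p = 0.0324).

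Fzd4, the receptor for the non-Wnt ligand Norrin as well as for Wnts, showed the same 3 high clones above the rest. It had 0.711, 6.32, 3.82, 2.82 and 0.666 CPM in high 1 to high 5, against 0.854, 0.869, 0.328, 0.711 and 1.63 CPM in low 1 to low 5. The log2 fold change was 1.70 (SE 0.65, adjusted p = 0.151 in edgeR). The other tested Frizzled genes were Fzd1, Fzd2, Fzd3, Fzd7 and Fzd8. They had log2 fold changes between -0.64 for Fzd1 and 1.31 for Fzd8, and none was called. Fzd8 was highest in high 3 at 58.0 CPM, against 4.17 to 17.6 CPM in the low clones.

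The co-receptor Lrp6 (chr6:134446476-134566965) had 89.6, 89.5, 79.3, 44.9 and 94.8 CPM in high 1 to high 5, against 51.5, 56.3, 47.9, 43.2 and 48.8 CPM in low 1 to low 5. All high clones but high 4 lay above every low clone. High over low, the log2 change was 0.68 (SE 0.19, adjusted p = 0.0659 in edgeR), and 0.83 (adjusted p = 0.0107) without high 4. That was the only call in 10 fits with a single library left out. Lrp6 lies on chromosome 6, whose tested genes had a median of 0.34, and with an offset per chromosome the value was 0.36 (adjusted p = 0.267). DESeq2 called it (adjusted p = 0.0159). For the related co-receptor Lrp5 the value was 0.26 (SE 0.25), and edgeR did not call it (adjusted p = 0.608).

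Ror2, a receptor for Wnt5a, had 12.9, 40.7, 39.7, 37.0 and 22.2 CPM in high 1 to high 5, against 13.8, 23.4, 22.3, 19.3 and 18.0 CPM in low 1 to low 5. High 1 lay below all low clones, high 5 within their range and the other high clones above them. Fitted across all genes, the log2 fold change was 0.66 (SE 0.30, adjusted p = 0.227 in edgeR), and 0.85 (adjusted p = 0.0473) without high 1. Ror2 was called in only 1 of 10 fits with a single library left out. Ror1, the other receptor of this pair, had 2 counts in all, both in low 4.

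Of 9 secreted inhibitors, 4 were tested and Dkk2 fell. Dkk2 (ENSMUSG00000028031, chr3:132085292-132180304, plus strand) encodes a secreted protein that binds Lrp5 and Lrp6. It had 0, 1, 0, 0 and 0 counts in high 1 to high 5, against 18, 21, 242, 184 and 75 counts in low 1 to low 5. Scaled, the low clones had 1.03, 1.14, 11.4, 7.70 and 4.08 CPM, and high 2 had 0.043 CPM. The gene had 0 or 1 count in every high clone and at least 18 counts in every low clone, at levels that themselves differed among low clones. From 1 count in the high group and 540 in the low group, the low-to-high ratio was 676 (95% counting interval 121 to 26738). The adjusted p was 0.00323 (edgeR). Dkk2 passed the filter on low counts through the low group alone. Dkk1, the best known gene of this family, had 0 counts in all 10 libraries.

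Dkk3, a divergent family member, had 0.559, 1.07, 0.189, 0.477 and 0.0998 CPM in high 1 to high 5, against 2.68, 4.29, 2.06, 0.46 and 24.4 CPM in low 1 to low 5. Low 4 lay among the high clones and low 5 stood far above the rest. The log2 fold change was -3.82 (SE 1.03, adjusted p = 0.0596 in edgeR), and -2.30 (adjusted p = 0.109) without low 5. Without low 4 it was -4.12, at an adjusted p of 0.05 that fell just on the called side before rounding. DESeq2 called it (adjusted p = 0.000549).

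Sfrp2, a secreted Frizzled-related protein that binds Wnts, had a mean of 141 CPM per kilobase in high clones and 14.1 CPM per kilobase in low clones, the second of these carried by low 5. It had 80.1, 783, 211, 430 and 10.6 CPM in high 1 to high 5, against 7.98, 4.07, 1.69, 4.77 and 134 CPM in low 1 to low 5. All high clones lay above the low clones other than low 5, which lay within the high range. The means were 303 ± 312 CPM in high clones and 30.5 ± 57.8 CPM in low clones (SD, n = 5 each). The difference on the log2 scale was 3.32 (SE 1.36, adjusted p = 0.186 in edgeR) with all libraries and 6.04 (adjusted p = 0.0311) without low 5. Here too the removed clone was the one that differed, and without any other single library the adjusted p was 0.149 to 0.325 (edgeR).

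Notum, a secreted enzyme that removes the lipid from Wnt proteins, had 0.305 to 9.95 CPM in high clones and 1.69 to 9.52 CPM in low clones (log2 fold change -0.52, SE 0.73). It shares 29.4% of its exon length with Notumos on the other strand, and the sources used here do not say whether reads were counted by strand. Sfrp1, Sfrp4, Frzb and Wif1 averaged below 0.5 CPM.

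On the R-spondin axis, Lgr4 rose and Znrf3 was not called. Lgr4 (ENSMUSG00000050199, chr2:109917647-110014257, plus strand) encodes a receptor for R-spondins. It had 33.3, 57.5, 90.7, 41.6 and 29.5 CPM in high 1 to high 5, against 14.0, 18.8, 19.8, 9.66 and 17.6 CPM in low 1 to low 5. The lowest high clone lay above the highest low clone. The means were 50.5 ± 24.9 CPM in high clones and 16.0 ± 4.17 CPM in low clones (SD, n = 5 each). Fitted across all genes, the log2 fold change was 1.66 (SE 0.32, adjusted p = 0.0205 in edgeR). The call was lost without low 1 (1.61, adjusted p = 0.0522) and without low 2 and low 3 together (1.89, adjusted p = 0.0828).

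Znrf3, the membrane ubiquitin ligase that clears Frizzled receptors, had 11.8 to 21.0 CPM in high clones and 16.2 to 19.0 CPM in low clones. Its log2 fold change was -0.08 (SE 0.18, adjusted p = 0.858 in edgeR). The partner ligase Rnf43 and the ligands Rspo1 and Rspo3 averaged below 0.5 CPM. Rspo2, an R-spondin ligand described but not tested, had 0.152, 3.44, 0.832, 0.199 and 0 CPM in high 1 to high 5, against 0, 0.272, 0.235, 0.544 and 0.163 CPM in low 1 to low 5.

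The tested intracellular genes had the smallest median absolute log2 fold change of the 6 roles, at 0.22. Of 9, 6 were tested, none was called, and none had an unadjusted p under 0.05. DESeq2 and limma-voom also called 0 of the 6. Their log2 fold changes ran from -0.24 for Dvl1 to 0.37 for Dvl3. Ctnnb1, which encodes beta-catenin, had a mean of 121 CPM per kilobase of exon in high clones and 138 CPM in low clones. By these means it was the highest on the list in low clones, and Sfrp2 alone was higher in high clones. Sfrp2 ran from 10.6 to 783 CPM among high clones, so that order holds for the mean and not for every clone. Ctnnb1 had 743, 696, 611, 539 and 549 CPM in high 1 to high 5, against 760, 639, 798, 539 and 846 CPM in low 1 to low 5. The groups overlapped, and the log2 fold change was -0.19 (SE 0.16, adjusted p = 0.546 in edgeR).

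The scaffold genes of the destruction complex, Axin1 and Apc, had log2 fold changes of 0.01 (SE 0.25) and 0.36 (SE 0.22). Those of the Dishevelled adaptors Dvl1, Dvl2 and Dvl3 were -0.24, 0.03 and 0.37. Dvl2 shares 18.3% of its exon length with Acadvl on the other strand, which had 331 CPM on average, against 159 CPM for Dvl2 (both scaled to raw totals).

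Axin2, a scaffold gene that is itself a widely used transcriptional target of beta-catenin, lay apart from the other intracellular genes. It had 4, 0, 0, 2 and 1 counts in high 1 to high 5, against 24, 12, 132, 10 and 27 counts in low 1 to low 5. Every high clone was below every low clone, and low 3 held 132 of the 205 low counts. The low-to-high ratio of the scaled counts was 36.6 (95% counting interval 17.5 to 92.3). The filter left the gene out. Without the filter, where 2.12% of 23398 genes were called, Axin2 was called (log2 fold change -4.96, SE 0.99, adjusted p = 0.0244 in edgeR). With the filter applied anew, it was not called without high 3 (adjusted p = 0.0541 in edgeR) or high 5 (0.0531). It was called without high 1, high 2, high 4 or low 4. Without any other single low clone the filter left it out. No high clone exceeded 0.203 CPM, so where Axin2 was kept it passed the filter through the low group alone. Such a gene has to differ, so these calls only describe it. Nkd1 and Nkd2, feedback inhibitors in the cytoplasm, averaged below 0.5 CPM.

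All 3 tested TCF/LEF genes had positive log2 fold changes, and 2 were called. Tcf7l1 (ENSMUSG00000055799, chr6:72626378-72789254, minus strand) encodes a factor that mostly represses Wnt target genes. It had 29.3, 66.2, 75.4, 32.8 and 19.6 CPM in high 1 to high 5, against 21.3, 13.1, 17.5, 8.24 and 13.0 CPM in low 1 to low 5. High 5 lay below low 1, and the other high clones lay above every low clone. The log2 fold change was 1.61 (SE 0.39, adjusted p = 0.0388 in edgeR). The adjusted p missed the threshold when high 2 (0.0808) or high 3 (0.0823) was left out, or any 1 of the low clones (0.0563, 0.0861, 0.0747, 0.0835 and 0.0784 without low 1 to low 5). With an offset per chromosome, given the median of 0.34 on chromosome 6, it was 1.32 (adjusted p = 0.124), and without low 2 and low 3 together it was 1.67 (adjusted p = 0.162).

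Tcf7l2 (ENSMUSG00000024985, chr19:55741820-55933654, plus strand) encodes a TCF factor that activates or represses targets with its partners. It had 51.9, 67.8, 80.5, 34.4 and 44.4 CPM in high 1 to high 5, against 25.7, 27.0, 24.4, 23.3 and 39.8 CPM in low 1 to low 5. High 4 lay below low 5, the only overlap. It rose by 0.99 on the log2 scale (SE 0.24, adjusted p = 0.0394 in edgeR). It was not called when high 2 (0.0837), high 3 (0.0854) or high 5 (0.053) was left out, nor without low 1 (0.0868), low 2 (0.0858), low 3 (0.0924) or low 4 (0.0919). Leaving out low 2 and low 3 together gave 0.193.

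Tcf7, best known from T cells, had 49.2, 87.9, 37.6, 30.9 and 44.6 CPM in high 1 to high 5, against 37.4, 24.3, 25.9, 28.6 and 21.4 CPM in low 1 to low 5. High 4 lay below low 1, and the other high clones lay above every low clone, high 3 by a small margin. Fitted across all genes, the log2 fold change was 0.86 (SE 0.27, adjusted p = 0.0908 in edgeR), and DESeq2 called it (0.0281). Per kilobase of exon Tcf7 was the highest of the family, at 14.8 CPM over the 10 libraries. Tcf7l1 had 7.55 CPM and Tcf7l2 4.78 CPM, an order that turned per kilobase of the longest transcript, at 9.74 CPM for Tcf7l1 and 11.3 CPM for Tcf7l2. Lef1, the remaining member, averaged below 0.5 CPM.

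**Figure D3:**
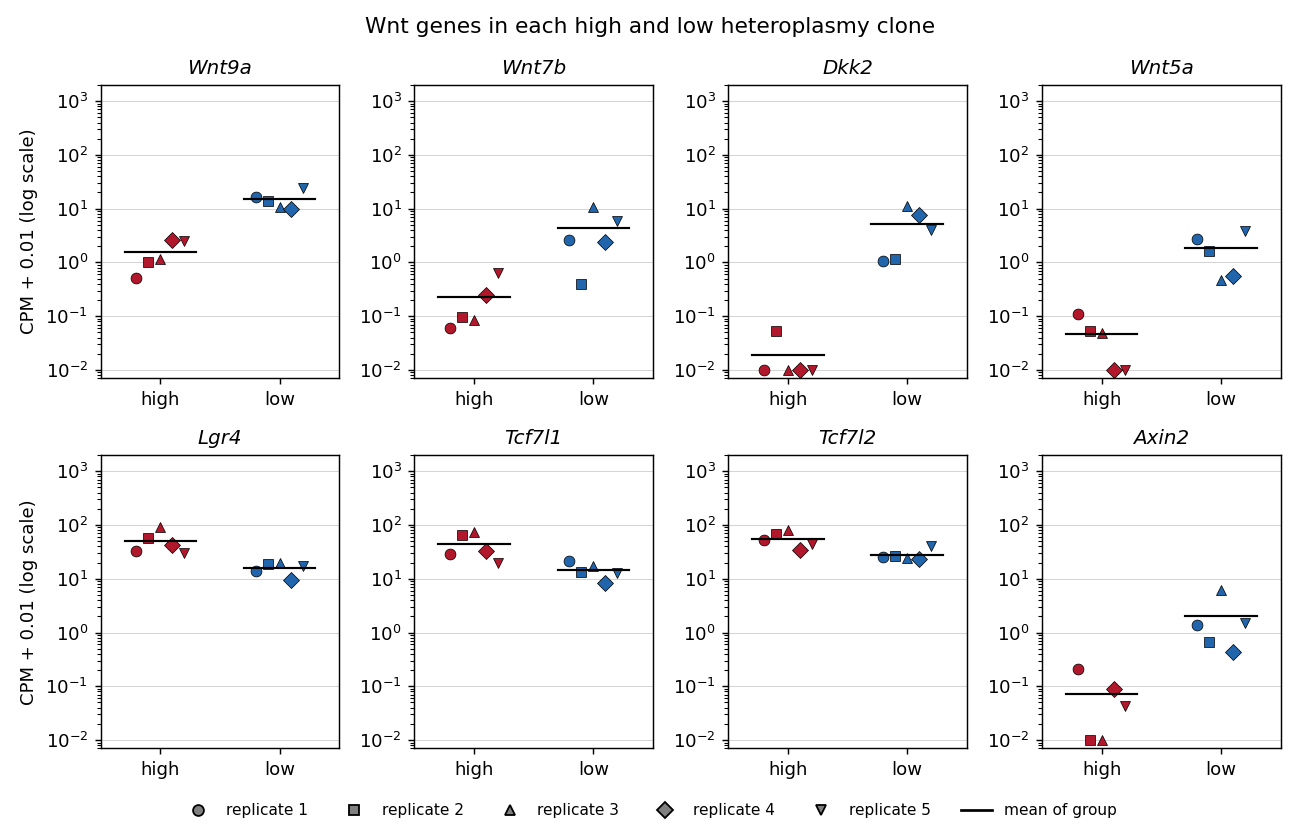
Level of 8 Wnt genes in each clone, on a log axis of CPM + 0.01, with high clones left and low clones right; symbols give the replicate number and lines the group mean. The top row shows the genes lower in high clones, with no overlap for Wnt9a, Dkk2 and Wnt5a, and the bottom row shows Lgr4, Tcf7l1 and Tcf7l2, higher in high clones, and Axin2, lower in high clones.

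The Wnt genes also differed among clones of 1 group. The SD of log2 CPM over the 5 clones, with a prior count of 2, had a median over the 33 tested genes of 0.73 in high clones and 0.45 in low clones. In each group 27 of the 33 had an SD above the median of genes with a like mean level (within 0.5 log2). That median was itself larger in high than in low clones for each of the 33, such as 0.32 against 0.25 for Fzd2. The SD was at or above the 90th percentile of such genes for 8 genes in high clones and for 11 in low clones. The highest clone of a group had 73.8 times the CPM of the lowest for Sfrp2 in the high group and 79.2 times in the low group. For Wnt4 this ratio was 158 in the high group, where the lowest clone had 4 counts, and 23.1 in the low group. For Dkk3 it was 10.8 in the high group, from 3 counts in the lowest clone, and 53.1 in the low group. Wnt9a, which separated the groups, had 5.09 in the high group and 2.48 in the low group. Ctnnb1 had 1.38 in the high group and 1.57 in the low group, and Znrf3 had 1.78 in the high group and 1.18 in the low group.

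No clone was the extreme for most genes. High 2 was the highest of its group for 14 of the 39 described genes, among them Wnt16, Fzd4, Sfrp2 and Rspo2. High 1 was the lowest for 15 and high 5 for 12. In the low group, low 5 was the highest for 12 and low 4 the lowest for 14.

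**Figure D4:**
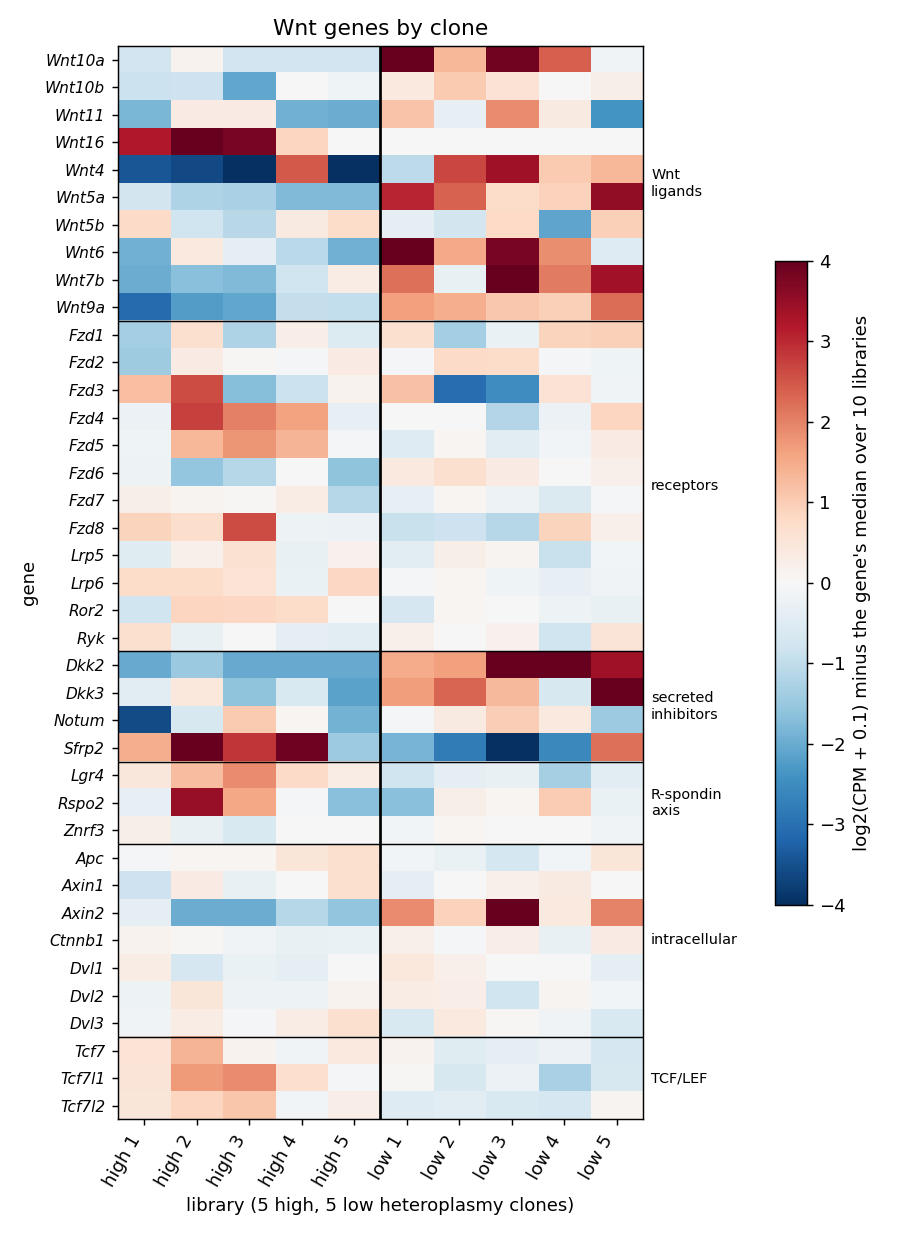
Level of the 39 described Wnt genes (rows, by role) in the 10 clones (columns, high left of low), as log2(CPM + 0.1) minus the gene's median over the 10 libraries; red is above the median, blue below. Ctnnb1, Axin1 and Znrf3 are near white in most clones, while Wnt4, Wnt16 and Sfrp2 differ strongly among clones of 1 group.

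A wider list of 96 names from the rest of the pathway was also chosen with earlier results known. Of these names, 10 were not matched to the count table and 64 genes were tested, of which 1 rose and 2 fell. This was 4.69%, against 4.86% of all tested genes. DESeq2 called 8 of the 64, against 11.4% of all tested genes, and limma-voom called 3, against 5.3%. The median log2 fold change was 0.09. By role, 0 of 14 genes of the destruction complex and its kinases were called by edgeR, with 2 at an unadjusted p under 0.05, while DESeq2 called 1 and limma-voom 0. Of 15 nuclear cofactors 1 fell, and DESeq2 and limma-voom each called 1. Of 14 genes of the planar polarity and calcium branch 1 fell, while DESeq2 called 2 and limma-voom 1. Of 11 beta-catenin targets 1 rose, while DESeq2 called 4 and limma-voom 1. The DESeq2 calls went both ways, with Ccn5 and Id2 higher and Ccn4 and Jun lower in high clones.

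The beta-catenin target that rose was Id2, an inhibitor of helix-loop-helix factors that other pathways, such as BMP signalling, also control. It had 14.9, 81.4, 173, 85.9 and 67.8 CPM in high 1 to high 5, against 5.81, 3.97, 3.38, 6.95 and 4.57 CPM in low 1 to low 5. The groups did not overlap, and the log2 fold change was 4.10 (SE 0.54, adjusted p = 0.00564 in edgeR). The call was lost without low 2 and low 3 together (3.89, adjusted p = 0.062).

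The nuclear cofactor that fell was Tle4, a Groucho co-repressor that binds TCF factors. It had 4.57, 3.05, 4.2, 9.23 and 5.29 CPM in high 1 to high 5, against 11.6, 16.2, 12.1, 15.9 and 13.1 CPM in low 1 to low 5. The groups did not overlap, and the log2 fold change was -1.39 (SE 0.29, adjusted p = 0.0272 in edgeR). It was not called when high 3 was left out (0.0648), nor without low 1 (0.0512), low 2 (0.0693), low 3 (0.0525) or low 4 (0.0616). An offset per chromosome gave 0.0807, and leaving out low 2 and low 3 together gave 0.132.

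Nfatc3, a calcium-regulated transcription factor, had 84.2, 105, 97.2, 93.3 and 107 CPM in high 1 to high 5, against 137, 174, 149, 137 and 136 CPM in low 1 to low 5. The groups did not overlap. The log2 fold change was -0.59 (SE 0.13, adjusted p = 0.0274 in edgeR), equal to the median of the tested genes of its chromosome 8. With an offset per chromosome it was -0.01 (adjusted p = 0.989), and the call was also lost without high 3 (0.0629), low 1 (0.0531), low 2 (0.0761), low 3 (0.06) or low 4 (0.0506), and without low 2 and low 3 together (0.172).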

How the data were processed

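Polyadenylated RNA of 10 clones was read as 50 bp pairs from a directional library kit, per the labels' protocols. The authors deposited whole read counts per Ensembl gene. GRCm38, STAR 2.7.8a, R 4.2.1 and DESeq2 1.36.0 are listed without roles, per the submitters' processing notes. The sources used here do not name the counting tool, whether strand was used or the annotation release. Genes were named from GENCODE on GRCm38, leaving 195 identifiers unnamed (at most 0.0701% of a library's counts).

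Counts were tested in edgeR 4.0.16 (R 4.3.3) with TMM scaling, the default expression filter by group and robust quasi-likelihood F-tests, with group as the only term and Benjamini-Hochberg adjustment over all tested genes. The SE is the log2 fold change divided by the root of F. CPM use TMM-scaled totals, and levels per kilobase use summed exon length. Alternatives used limma 3.58.1 (voom), DESeq2 1.42.0, other scaling and filters, a replicate block, an offset per chromosome (from genes with a mean log2 CPM above 3) and left-out libraries. The code was tested on simulated data.

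The Wnt genes, lists and tests were chosen with earlier results of these data known. Values in every library are given for listed Wnt genes that were called, had an unadjusted p under 0.05 or were the highest per kilobase of their role over the 10 libraries, and for genes of the wider list that were called. Wnt4, Wnt5a, Wnt6, Wnt10a, Wnt16, Wnt2, Rspo2 and Axin2 were added after their values were seen. The counts of Nkd2, Rspo1 and Rspo3 in single clones also fall outside this rule. Intervals and floors cover counting error only. Whether clones share a founder culture is not stated, so p-values measure the spread between these clones.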

Additional observations from a re-analysis of the deposited data

Results flagged for a closer look

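In 77 groups of 5 clones (log2 CPM, prior count of 2), 7 had a clone far from the other 4. Chance alone flags about 1 group in 20 for normally distributed values. A group with counts in 1 clone alone is always flagged, so the 7 of 77 cannot be set against that rate. Wnt4 had 24.0 CPM in high 4 and 0.151 to 0.305 CPM in the other high clones. Lrp6 had 44.9 CPM in high 4 and 79.3 to 94.8 CPM in the others. Fzd2 had 27.5 CPM in high 1 and 72.8 to 94.0 CPM in the others. Fzd7 had 20.8 CPM in high 5 and 47.6 to 56.5 CPM in the others. Tcf7l2 had 39.8 CPM in low 5 and 23.3 to 27.0 CPM in the other low clones. Wnt10a had 0.086 CPM and Dkk2 0.043 CPM in high 2, from 2 counts and 1 count. Both had 0 in the other high clones, which fixed these flags in advance.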

How the results depend on the processing

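Wnt9a and Dkk2 were called in all 19 alternatives that chose the filter anew or kept all libraries, Id2 in 18, Lgr4 in 17, Tle4 in 12, Nfatc3 in 11, Wnt7b in 11 of 18, Tcf7l2 in 10 and Tcf7l1 in 8. All genes called numbered 630, with 1475 in DESeq2, 496 of 23398 without a filter, 577 with a replicate block, 164 with an offset per chromosome, 56 of 13521 without low 2 and low 3 together and 232 to 821 with 1 library left out. Wnt genes called higher numbered 3 of 33 tested, with 6 in DESeq2, 1 with a replicate block, 0 without low 2 and low 3 together and 0 to 5 with 1 library left out. Those called lower numbered 3, with 6 in DESeq2, 6 of 52 tested without a filter and 3 to 7 of 34 to 37 tested with 1 library left out. With the genes of the full fit kept, a choice made after seeing the data, higher calls ran from 0 to 5 and lower calls from 2 to 5 with 1 library left out, and were 0 and 1 without low 2 and low 3 together, where Wnt9a was lost (adjusted p = 0.0526 in edgeR). On the wider list, 1 was higher, with 4 in DESeq2, 0 without low 2 and low 3 together and 1 to 3 with 1 library left out. On that list 2 were lower, with 4 in DESeq2, 1 without a filter, 0 with an offset per chromosome, 0 without low 2 and low 3 together and 0 to 5 with 1 library left out. Ryk (-0.11) turned to 0.02 with an offset per chromosome and to 0.02 without low 5, ran from -0.34 to 0.02 over the single libraries left out, and was never called. Per kilobase of the longest transcript, Ctnnb1 had 185 CPM, Ryk 84.9 CPM and Tcf7l2 11.3 CPM. At a prior count of 0.5, the SD was at or above the 90th percentile for 8 genes in high and 9 in low clones. Beyond the change of tested genes, the cause of these changes was not tested. Clones with the same replicate number correlated at 0.0121 to 0.5 in their deviations, 3 of the 5 pairs were above 0.1, and not every clone correlated best with its own number, so the numbers were not taken as pairs. With the replicate block Tcf7l1 (adjusted p = 0.0529) and Tcf7l2 (0.0631) were not called by edgeR. Depth limits the genes with few counts, such as Wnt5a, Wnt10a, Dkk2 and Axin2 in high clones.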

Other observations

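Neighbouring ligand genes were compared by their levels. Wnt10b lies 11.7 kb from Wnt1, which averaged 0.176 CPM in high clones and 0.671 CPM in low clones, while Wnt10b averaged 18.2 CPM in high clones and 39.6 CPM in low clones. Nkd2, a feedback inhibitor of the pathway, averaged below 0.5 CPM but had 47 counts (1.56 CPM) in high 5, against 0 to 4 counts in the other high clones and 2 to 15 counts in low clones. Rspo1, an R-spondin ligand, had 43 counts (1.85 CPM) in high 2, against 0 to 6 in the other high clones and 0 to 10 in low clones. Rspo3, a related ligand, had 0 to 11 counts in high clones, against 22 counts in low 1, 25 in low 4 and 4 or 5 in the other low clones.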
